A study of Mus musculus with 503 samples.

Results

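The Notch pathway was followed in single perivascular cells of the mouse spinal cord through 9 genes: the ligand gene *Jag1*, the receptor genes *Notch1*, *Notch2* and *Notch3*, and the target genes *Hes1*, *Hey1*, *Hey2*, *Heyl* and *Nrarp*. They were chosen by symbol, and all 9 were found among the 56701 gene rows of the deposited counts. The cells came from adult GLAST-CreERT2;R26R-tdTomato;Pdgfrb-eGFP mice, all given tamoxifen, in which a Cre expressed from the GLAST gene (*Slc1a3*) switches on tdTomato and *Pdgfrb* drives EGFP. EGFP+ cells with tdTomato (tdTomato+EGFP+) or without it (tdTomato-EGFP+) were sorted one by one from uninjured cord or from cord 3 days after a complete crush injury (SCI), and sequenced with Smart-seq3, a method that reads along the whole transcript. The labels give 3 days and the series description gives 5, and the labels were followed. The labels give every cell as female, whereas the reporting statement of the study names both sexes for sequencing. The methods of the study name only females for crush injuries. tdTomato marks cells in which GLAST was active when tamoxifen was given, so a cell without tdTomato may still belong to a cell type with GLAST.

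Filtering kept 468 of 503 labelled cells in the 4 groups. Summed over cells, the groups held between 25645409 and 38406035 counts. No label names an animal, so the cells of a group count as 1 sample, and the differences reported here carry neither a test nor a replicate check. The spread given is technical: uninjured cells lay on plates 209 and 213 and injured cells on plates 211 and 215, so that injury and plate cannot be told apart, while both sorted populations lay on every plate. The 34 injured tdTomato+EGFP+ cells of plate 215 were shallow, with a median of 14770 counts against 328802 in the 88 cells of plate 211, which hold most counts of that group.

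Notch receptors are cut when a ligand on a neighbouring cell binds them, and the freed intracellular part enters the nucleus, joins the DNA-binding protein RBPJ and switches on target genes. *Notch3* is the receptor gene best known from mural cells, the pericytes and vascular smooth muscle cells (vSMCs) that wrap vessels, where it maintains vSMCs and pericytes, while *Notch1*, *Notch4* and the ligand gene *Dll4* are used by endothelial cells. *Hes1*, *Hey1*, *Hey2* and *Heyl* encode transcriptional repressors, and *Nrarp* encodes a feedback inhibitor that binds the Notch intracellular part.

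At 3 days after SCI, 8 of the 9 genes were at least 2-fold lower in tdTomato+EGFP+ than in tdTomato-EGFP+ cells. This was in counts summed over plates, beside 17.9% of all genes compared. In uninjured cord only *Hey2* was so, beside 3.61%. At 3 days *Jag1* was less than 2-fold lower on plate 215, as was *Hes1* on plate 211. The widest gap was that of *Notch3*, which was 27.2-fold lower in injured tdTomato+EGFP+ than tdTomato-EGFP+ cells and was not lower after injury in tdTomato-EGFP+ cells. *Notch2* had no direction in common to both plates. Most cells of the uninjured groups also carried endothelial transcripts and most injured cells did not, and the values of *Notch1* and *Hey1* moved with that difference. Leaving out cells with endothelial transcripts narrowed the 3-day gap between the sorts for *Hey1*, but hardly changed that of *Notch1*.

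*Notch3* (chr17:32120820-32166852, minus strand, in the GENCODE vM21 models of GRCm38) stood at 275.4 CPM (summed counts scaled by the total of the group; 95% Poisson interval 270.2 to 280.7) in uninjured tdTomato+EGFP+ cells, 379.7 (372.3 to 387.1) in uninjured tdTomato-EGFP+ cells, 15.1 (13.7 to 16.5) in injured tdTomato+EGFP+ cells and 436.0 (428.0 to 444.2) in injured tdTomato-EGFP+ cells. These intervals cover counting error only. On the plates it was at 215.7 and 318.4 CPM, 321.9 and 407.0, 15.3 and 10.7, and 441.4 and 431.1, in the same order of groups, so the injured tdTomato+EGFP+ plates lay below all 6 others. The difference between the sorts at 3 days was -4.77 on the log2(CPM + 1) scale used for all differences below (-5.20 and -4.76 on the plates), a 27.2-fold gap. Fewer cells held it as well: with every cell thinned to 20000 counts, *Notch3* had a count in 74.8% of uninjured tdTomato+EGFP+ cells (exact binomial 95% interval 66.3 to 82.1) and in 12 of 100 injured ones (6.36 to 20.02%), against 83.7% of uninjured and 71.6% of injured tdTomato-EGFP+ cells. Without thinning the 2 tdTomato+EGFP+ shares were 80.3% and 24.6%.

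*Notch1* (chr2:26457903-26516663, minus strand) stood in uninjured tdTomato+EGFP+ cells at 196.1 CPM (plates 181.6 and 206.6) and in uninjured tdTomato-EGFP+ cells at 221.3 CPM (198.5 and 232.1). After injury the values were 20.01 CPM (20.4 and 13.1) and 91.99 CPM (95.6 and 88.7), so that no injured plate reached an uninjured one. It was thus lower after injury in both sorts, by -3.23 (-3.88 to -3.09 over the 4 injured-uninjured plate pairs) and by -1.26 (-1.38 to -1.05). Exons of 2 genes of the opposite strand, *0610009E02Rik* and *Gm13568*, overlap 7.50% and 2.91% of the bases of the *Notch1* exons, and whether the counting used strand is not given, so that reads there cannot be assigned with certainty. The same holds for 6.03% of the *Notch3* exon bases, which the antisense gene *Gm17276* overlaps.

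*Notch2* (chr3:98013527-98150361, plus strand) was the receptor gene with the least difference between groups. Its levels were 37.4 and 29.8 CPM without injury, and 34.2 and 39.6 CPM with it, for tdTomato+EGFP+ and tdTomato-EGFP+ cells respectively, and the 2 plates of injured tdTomato-EGFP+ cells differed more (24.1 and 53.7 CPM) than any 2 groups. Per kilobase of exon, the receptors stood in the order *Notch3*, *Notch1*, *Notch2* in uninjured tdTomato+EGFP+ cells (34.05, 13.8 and 3.47 CPM per kilobase) and in injured tdTomato-EGFP+ cells (53.9, 6.46 and 3.67). In injured tdTomato+EGFP+ cells *Notch2* was highest (3.18, against 1.86 for *Notch3* and 1.41 for *Notch1*). This scaling applies to reads, and whether a deposited count is a read or a molecule is not given.

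The ligand gene *Jag1* (chr2:137081456-137116644, minus strand) measured 63.3 CPM in uninjured tdTomato+EGFP+, 72.2 in uninjured tdTomato-EGFP+, 36.5 in injured tdTomato+EGFP+ and 91.1 in injured tdTomato-EGFP+ cells. The injured plates were at 34.5 and 72.1 CPM for tdTomato+EGFP+ and at 84.3 and 97.4 CPM for tdTomato-EGFP+ cells, so that *Jag1* was lower in tdTomato+EGFP+ cells on both, but by -1.26 on plate 211 and only -0.43 on plate 215. After thinning, 44.9% and 46% of uninjured and injured tdTomato+EGFP+ cells had a count of *Jag1*.

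**Figure D1:**
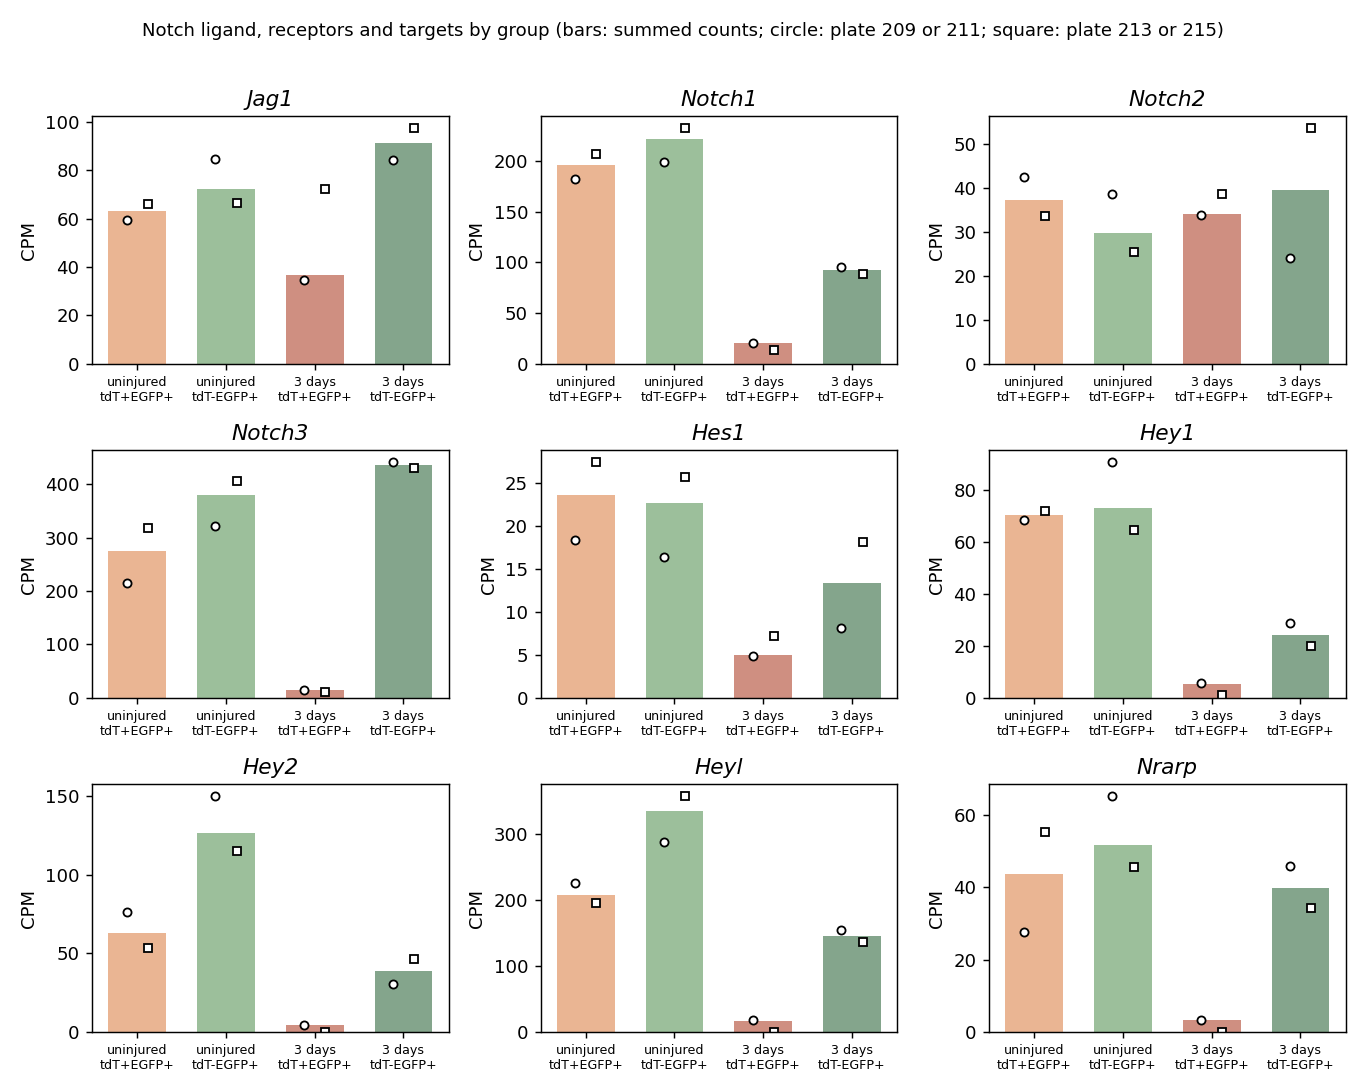
Levels of the 9 genes in CPM (vertical axes, each starting at 0) in the 4 groups; bars are summed counts of a group, and the circle and square are its 2 plates. Injured tdTomato+EGFP+ cells are the lowest group for every gene except *Notch2*, and *Notch3* stands at 436.0 CPM in injured tdTomato-EGFP+ cells.

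The targets followed the receptors *Notch1* and *Notch3* in direction between the sorts at 3 days. *Heyl* (chr4:123233556-123249875, plus strand) had 208.1 CPM in uninjured tdTomato+EGFP+, 335.1 in uninjured tdTomato-EGFP+, 16.3 in injured tdTomato+EGFP+ and 144.6 in injured tdTomato-EGFP+ cells. *Hey2* (chr10:30832359-30842801, minus strand) was at 62.7, 126.5, 4.18 and 38.8 CPM in the same order, and *Nrarp* (chr2:25180758-25183339, plus strand) at 43.6, 51.8, 3.15 and 39.8 CPM. *Nrarp* therefore resembled *Notch3* in the tdTomato-EGFP+ cells, with a difference after injury of -0.37 whose plate pairs ran from -0.91 to 0.02, whereas *Hey2* and *Heyl* were lower by -1.68 and -1.21 in all 4 pairs. Exons of the antisense gene *Gm38287* cover 79.4% of the *Nrarp* exon bases. All values given for *Nrarp* may therefore belong to either gene.

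In the injured tdTomato+EGFP+ cells of plate 215, *Hey2*, *Heyl* and *Nrarp* had no count, which at this depth allows up to 1.79 CPM (3 counts). Against that limit they were at least 25.9-fold, 75.9-fold and 19.1-fold lower than in the tdTomato-EGFP+ cells of the same plate. On plate 211 they were at 4.41, 17.2 and 3.33 CPM. These remaining counts sat in few cells, since 1 cell held 56.1% of the *Nrarp* counts, 26.2% of the *Hey2* counts and 19.5% of the *Heyl* counts of injured tdTomato+EGFP+ cells.

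*Hey1* (chr3:8663359-8667256, minus strand) had 70.4, 72.9, 5.30 and 24.3 CPM in the order used for *Hey2*. It was a gene of few cells, with a count in 29.1%, 27.2%, 6% and 16.7% of cells after thinning. *Hes1* (chr16:30064384-30067796, plus strand), a target shared by many signals, was at 23.6, 22.7, 4.95 and 13.4 CPM. Its injured tdTomato-EGFP+ plates were at 8.11 and 18.1 CPM, and the second of these overlaps the uninjured plates of that sort (16.3 and 25.6 CPM).

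The promoter sequences of *Hey2*, *Nrarp* and *Notch3* are shown because these genes had the lowest or the most divided levels and a RefSeq entry; *Notch1*, *Notch2* and *Jag1* also had one, and *Hes1*, *Hey1* and *Heyl* did not. Each runs 5′ to 3′ from 250 bases before to 10 bases after the RefSeq start site in GRCm38.p6, at chr10:30842774-30843033 (minus strand), chr2:25180508-25180767 (plus strand) and chr17:32166881-32167140 (minus strand). Capitals mark matches on either strand to GTGGGAA, a form of the RBPJ site that contains the core TGGGAA, or to CACGTG, an E-box form that Hes and Hey proteins can bind.
Hey2: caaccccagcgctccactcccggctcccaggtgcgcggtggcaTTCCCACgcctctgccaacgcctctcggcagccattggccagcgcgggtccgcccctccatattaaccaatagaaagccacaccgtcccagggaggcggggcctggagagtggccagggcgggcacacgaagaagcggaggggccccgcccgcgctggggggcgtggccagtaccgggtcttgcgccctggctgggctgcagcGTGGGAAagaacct
Nrarp: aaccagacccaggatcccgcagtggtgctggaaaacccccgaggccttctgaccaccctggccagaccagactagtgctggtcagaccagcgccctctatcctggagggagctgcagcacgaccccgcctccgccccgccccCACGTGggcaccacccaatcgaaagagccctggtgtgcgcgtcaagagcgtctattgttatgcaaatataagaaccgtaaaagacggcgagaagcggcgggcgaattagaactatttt
Notch3: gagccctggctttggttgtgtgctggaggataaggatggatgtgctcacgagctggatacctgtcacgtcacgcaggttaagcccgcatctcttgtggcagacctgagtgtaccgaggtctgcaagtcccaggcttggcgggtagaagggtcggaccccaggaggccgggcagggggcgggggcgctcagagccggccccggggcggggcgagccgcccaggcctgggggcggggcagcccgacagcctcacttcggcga
GTGGGAA was found in 1 of the 6 promoters, that of *Hey2*, at 2 places that begin 4 and 207 bases before the start site, the second as the reverse complement TTCCCAC. It occurs in 6.38% of all 32851 promoter windows of 300 bases, and the shorter TGGGAA in 25.6%. CACGTG was found once, in *Nrarp*, where capitals mark it, and occurs in 7.15% of all windows. None of these letters were found in the windows of *Notch1*, *Notch2*, *Notch3* and *Jag1*. These are matches of letters in a window and no evidence of binding.

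Across the 9 genes, the sort differed little in uninjured cord. The median difference, tdTomato+EGFP+ minus tdTomato-EGFP+, was -0.19 (-0.40 and -0.003 on the plates) beside 0.008 over all 11198 genes at 10 CPM or more. Of the 9 genes, 0 were 2-fold or more higher and 1, *Hey2* (-1.001), was 2-fold or more lower with the same sign on both plates, beside 4.31% and 3.61% of all genes in these directions. *Hey2* lay at the limit itself, and neither with a pseudocount of 10 CPM nor with CPM averaged over cells did it pass. *Heyl* (-0.68) and *Notch3* (-0.46) were also lower on both plates. All 6 vSMC markers were 2-fold or more lower in these tdTomato+EGFP+ cells (summed 933.7 against 2992 CPM), and 3 against 14 cells (2.19% and 13.2%) fell in the vSMC-like cluster described below; their part in the *Hey2* difference was not tested.

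At 3 days the median was -2.15 (-2.19 and -3.27 on the plates), beside -0.32 over 10631 genes. 0 of the 9 genes were higher and 8 were lower by the same rule, beside 4.31% and 17.9% of all genes. From the largest gap to the smallest, they were *Notch3* (-4.77), *Nrarp* (-3.30), *Heyl* (-3.07), *Hey2* (-2.94), *Notch1* (-2.15), *Hey1* (-2.003), *Jag1* (-1.30) and *Hes1* (-1.27), while *Notch2* (-0.20) differed by 0.48 on plate 211 and -0.46 on plate 215. Plate 211 holds most tdTomato+EGFP+ counts but not most tdTomato-EGFP+ counts, so summed counts weight the plates differently in each sort. *Hes1* was at 4.82 against 8.11 CPM on plate 211, less than 2-fold lower, and at 7.15 against 18.1 CPM on plate 215. *Jag1* was less than 2-fold lower on plate 215. All 9 pericyte markers were lower in the same comparison by the same rule, with a median of -4.33 beside the -4.77 of *Notch3*, and so were 7 of 8 endothelial markers; their part in the differences was not tested. With scaling by TMM factors or DESeq2 size factors, which moved the median of all genes up by 0.37 and 0.51, 6 of the 9 genes were 2-fold or more lower under either, beside 11.3% and 9.46% of all genes.

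Injury was compared within each sort. In tdTomato+EGFP+ cells 0 of the 9 genes were higher and 7 lower, beside 10.8% and 34.3% of all 11429 genes, and the median of the 9 was -3.43 (-4.77 to -3.09 over plate pairs, or -4.28 to -3.09 with the empty plate values set at their limit) beside -0.59. The largest differences were those of *Notch3* (-4.10), *Hey2* (-3.62), *Heyl* (-3.60) and *Hey1* (-3.50), and *Jag1* (-0.78) and *Notch2* (-0.12) had no common sign over the plate pairs. In tdTomato-EGFP+ cells 0 were higher and 4 lower (*Hey2*, *Hey1*, *Notch1* and *Heyl*), beside 9.52% and 17% of all 11434 genes, with a median of -0.72 (-1.13 to -0.48). With TMM factors 2 of the 9 were lower by this rule, and with DESeq2 size factors 3, beside 10.9% and 11.5% of all genes. Here *Notch3* was higher by 0.20 (0.08 to 0.45), less than 2-fold. These comparisons share no sample, but each shares a group with both sort comparisons.

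The injury difference of tdTomato+EGFP+ cells minus that of tdTomato-EGFP+ cells had a median of -1.95 over the 9 genes (-3.42 to -1.79 over plate pairs), beside -0.39 over all 12081 genes. It was -4.30 for *Notch3* (-4.85 to -4.19), -3.05 for *Nrarp*, -2.39 for *Heyl* and -0.52 for *Notch2* (-0.85 to 0.35).

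**Figure D2:**
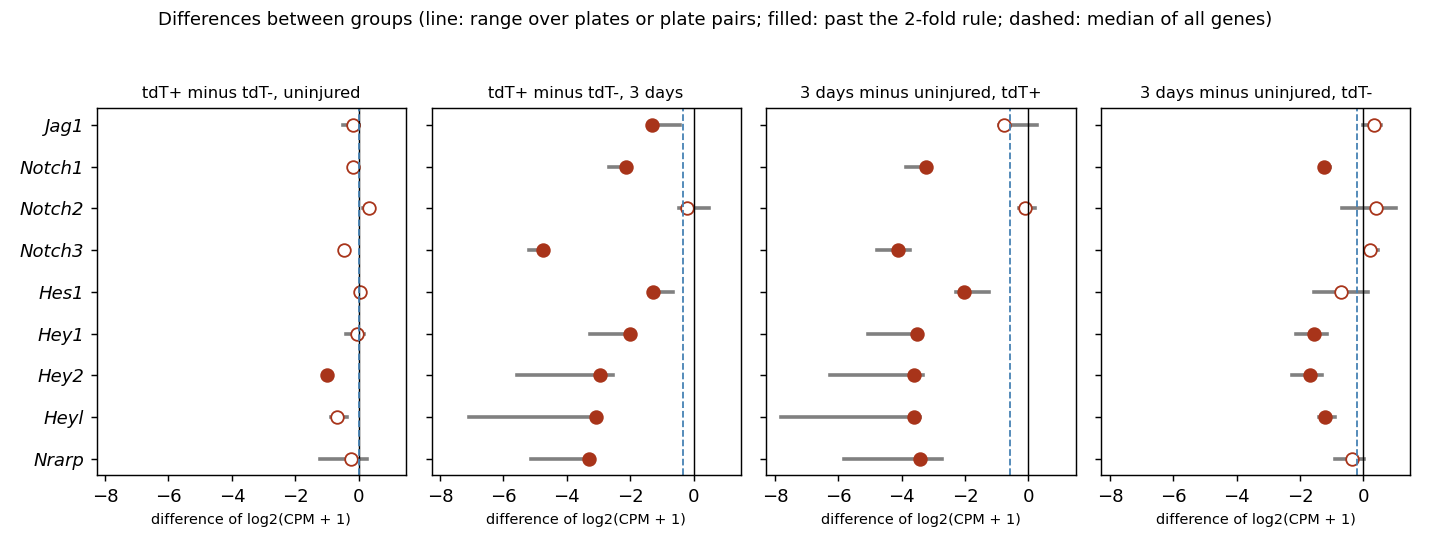
Differences of log2(CPM + 1) for the 9 genes in the 4 comparisons; circles are values from summed counts (filled where past the 2-fold rule), grey lines the range over plates or plate pairs, and dashed lines the median of all genes. At 3 days 8 circles are filled, against 1 in uninjured cord; the long lines of *Hey2*, *Heyl* and *Nrarp* reach to plate values of 0 counts.

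The cells of the groups were not of the same kind. The 8 endothelial markers summed to 5201 and 5823 CPM in uninjured tdTomato+EGFP+ and tdTomato-EGFP+ cells and to 396.0 and 1917 CPM in injured ones, and 7 of 8 were 2-fold or more lower after injury in each sort. Counted by cell, 75.2% of tdTomato+EGFP+ and 71.7% of tdTomato-EGFP+ cells without injury, but 1.64% and 24.3% with it, had 2 or more of the 8 markers above 1 on the ln(1 + counts per 10000) scale. In the uninjured tdTomato-EGFP+ group, the 30 cells below that limit had the 9 pericyte markers at a sum of 2402 CPM, against 14686 CPM in the 76 above it, and 8 of the 9 were higher above it. The gap differed by gene, with 8.76 against 2111 CPM for *Kcnj8* and 911.1 against 4412 CPM for *Rgs5*, and *Cd248* was the exception. Whether a well with both kinds of transcript held 1 cell, more than 1 or a cell with attached fragments was not tested.

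Split in this way, the 9 genes fell into different patterns. *Hey1* in uninjured tdTomato+EGFP+ cells was at 95.4 CPM in the cells with endothelial markers and at 0.79 CPM in the 34 without, and *Notch1* at 256.3 and 28.5 CPM. *Notch2* went the other way, at 19.1 CPM with and 88.3 CPM without endothelial markers. *Notch3* was at 313.0 and 170.5 CPM. In injured tdTomato-EGFP+ cells *Notch3* was at 479.7 CPM in the 25 cells with and 422.4 CPM in the 78 without, *Nrarp* at 51.1 and 36.3, *Heyl* at 136.2 and 147.2, and *Hey1* at 75.7 and 8.23 CPM.

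When cells with endothelial markers were left out, *Notch3* in tdTomato+EGFP+ cells was lower after injury (-3.84, with -4.27 to -2.37 over plate pairs). So were *Nrarp* (-3.67, -5.62 to -2.34), *Hey2* (-2.28, -4.59 to -2.11), *Hes1* (-1.63, -1.74 to -1.02) and *Heyl* (-1.41, -6.47 to -0.19). The uninjured cells left numbered 34, and their plates 209 and 213 differed, with *Notch3* at 61.3 and 226.1 CPM and *Nrarp* at 14.6 and 48.2 CPM. *Notch1* was at -0.70 in place of -3.23, and *Hey1*, now at 0.79 CPM before and 3.61 CPM after injury, changed sign to 1.37 (-0.17 to 1.72). *Notch2* was at -1.31 (-1.94 to -0.71) in place of -0.12, and so passed the 2-fold rule. In tdTomato-EGFP+ cells 1 of the 9 genes was then lower by the rule, in place of 4, beside 15.6% of all genes in those cells. Between the sorts in uninjured cord, 5 of the 9 genes (*Hey1*, *Hey2*, *Notch1*, *Heyl* and *Notch3*) were then 2-fold or more lower in tdTomato+EGFP+ cells in place of 1. This stood beside 14.3% of all genes, with a median of the 9 of -1.09. These are 34 against 30 cells, not matched for kind of cell. Of all kept uninjured cells, 26 tdTomato+EGFP+ against 8 tdTomato-EGFP+ fell in the perivascular fibroblast-like cluster described below. In the vSMC-like cluster there were 3 against 14. The part of these kinds of cell in the differences was not tested.

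**Figure D3:**
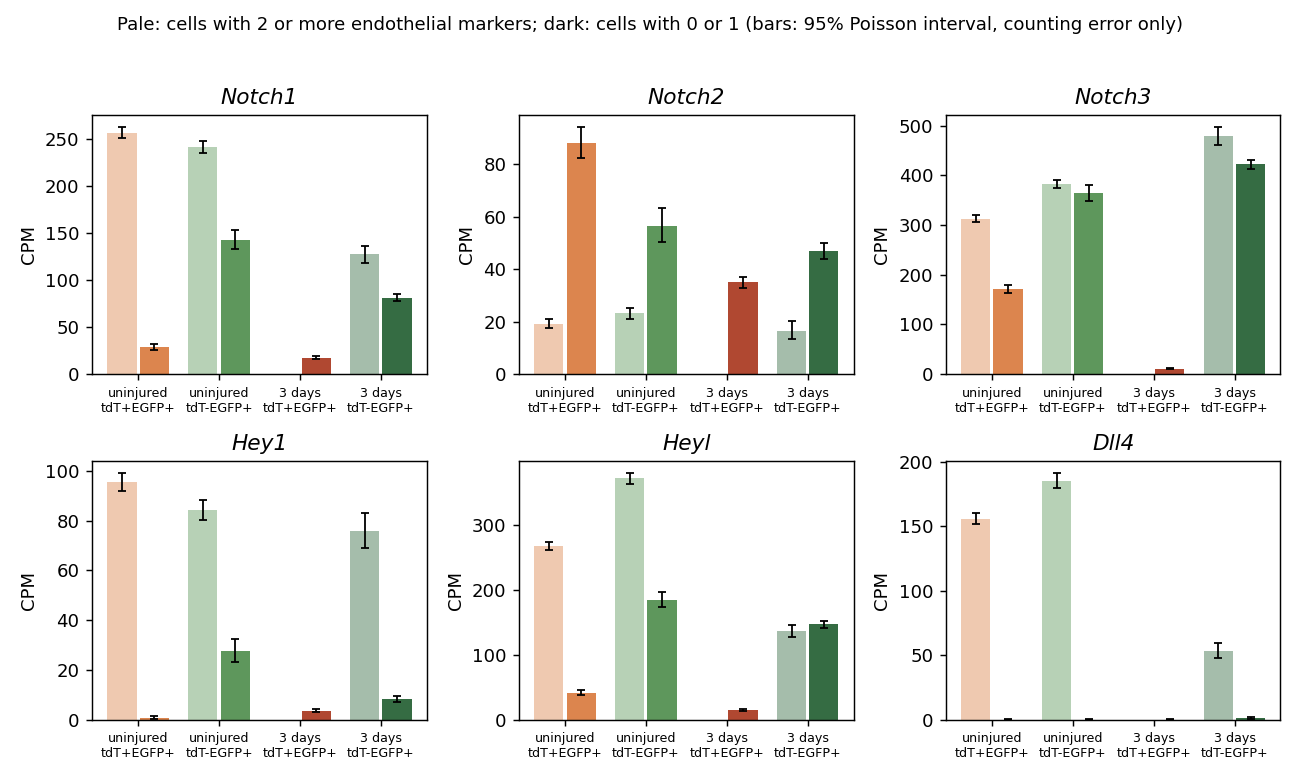
Levels in CPM (vertical axes, starting at 0) of 5 of the genes and of the endothelial ligand gene *Dll4* in cells with 2 or more (pale) or 0 or 1 (dark) endothelial markers, by group, with 95% Poisson intervals; the pale bar of injured tdTomato+EGFP+ is left out, as it holds 2 cells. *Dll4* stands almost only in pale bars, *Hey1* is higher in pale than in dark ones (84.1 and 27.6 CPM in uninjured tdTomato-EGFP+ cells), *Notch2* is higher in dark ones, and *Notch3* stays above 400 CPM in both bars of injured tdTomato-EGFP+ cells.

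The levels were then read by kind of cell. Clustering without the Notch genes among its variable genes gave 6 clusters. Cluster 6 (18 cells) had 5 of 6 vSMC markers raised and was called vSMC-like, cluster 5 (48 cells, 47 of them injured tdTomato-EGFP+) had 7 of 9 pericyte markers raised and was called pericyte-like, and cluster 4 (71 cells) had 9 of 9 perivascular fibroblast markers raised and was called perivascular fibroblast-like. Clusters 5 and 4 also had 3 and 4 of 6 markers of activated stromal fibroblasts raised. Clusters 2 and 3, which held 71.5% of uninjured tdTomato+EGFP+ and 70.8% of uninjured tdTomato-EGFP+ cells, had both pericyte and endothelial markers raised, with endothelial genes such as *Slc38a5* or *Bmx* leading, and stayed unnamed. Cluster 1, also unnamed, had fibroblast and cycling genes raised and held 81.97% of injured tdTomato+EGFP+ cells.

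*Notch3* was highest in the vSMC-like cells (998.0 CPM, 95% Poisson interval 969.4 to 1027), followed by the pericyte-like cells (565.1, 551.3 to 579.1) and clusters 3 (480.4) and 2 (267.2), and it had a count in all 18 and all 48 cells of the first 2. It was at 63.8 CPM in cluster 1 and 25.01 CPM in the perivascular fibroblast-like cells. *Jag1* (303.1 CPM), *Hey2* (202.9), *Nrarp* (149.3) and *Heyl* (369.9) were also highest in the vSMC-like cells. The *Jag1* value exceeds those of its plates with 5 or more such cells (204.8 and 254.5 CPM) through the few other cells, and was 224.3 CPM in the 14 uninjured tdTomato-EGFP+ ones, above the plates of clusters 2 to 5 (at most 129.2 CPM) but below 1 plate of cluster 1 (244.6 CPM). *Notch3* ran there from 427.0 to 1082 CPM over the plates with 5 or more such cells, which overlaps the plates of the pericyte-like cells (529.8 to 599.7) and of cluster 3 (413.1 to 815.4), so the order of these 3 is not separated, while the plates of *Hey2* (177.7 to 282.5) and *Nrarp* (133.3 to 151.85) lay above those of all other clusters. *Heyl* in cluster 3 (349.3 CPM) lay within the plate range of the vSMC-like cells (313.0 to 397.6), and these 2 are not separated either.

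*Hey1* stood apart from *Hey2* and *Heyl*. It was highest in cluster 3 (153.5 CPM), the cluster led by *Gkn3* and *Bmx*, and was at 27.6 CPM in the vSMC-like and 9.54 CPM in the pericyte-like cells. *Notch1* was highest in clusters 2 and 3 (247.4 and 226.9 CPM) but was also at 163.2 CPM in the vSMC-like and 118.5 CPM in the pericyte-like cells. The part of endothelial transcripts in these values was not tested. *Notch2* was highest in the perivascular fibroblast-like cells (89.3 CPM, 85.2 to 93.5). Per kilobase of exon it was the leading receptor there (8.28 CPM per kilobase, against 3.09 for *Notch3* and 0.987 for *Notch1*), and in the vSMC-like cells the order was *Notch3* (123.4), *Notch1* (11.5) and *Notch2* (2.15).

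Within a cluster the sorts could also be set side by side. In cluster 2, 59 tdTomato+EGFP+ and 51 tdTomato-EGFP+ uninjured cells had *Notch3* at 254.1 and 263.3 CPM, with overlapping plates (198.1 to 302.7 and 199.8 to 286.8), and *Hey2* at 52.1 and 105.4 CPM, with plates apart (51.4 to 52.7 and 90.6 to 145.5). In cluster 3, 39 and 24 such cells had *Notch3* at 412.3 and 592.4 CPM (371.8 to 443.9 and 586.3 to 596.5) and *Hey2* at 122.2 and 153.2 CPM (91.5 to 161.5 and 149.7 to 155.5), so that *Notch3* stood apart there and *Hey2* did not. Among perivascular fibroblast-like cells *Notch2* was at 98.7 CPM in 26 uninjured tdTomato+EGFP+, 55.2 in 18 injured tdTomato+EGFP+ and 87.1 in 19 injured tdTomato-EGFP+ cells, with uninjured plates at 71.3 and 154.9 CPM. In cluster 1, *Notch3* was at 11.7 CPM in 100 injured tdTomato+EGFP+ cells and 358.3 CPM in 17 injured tdTomato-EGFP+ cells, whose plates stood at 101.6 and 676.4 CPM; *Heyl* was at 17.003 and 61.3 CPM and *Nrarp* at 3.58 and 29.2 CPM. In cluster 3, the 24 uninjured and 14 injured tdTomato-EGFP+ cells had *Notch3* at 592.4 and 503.7 CPM, *Notch1* at 238.4 and 143.6, *Heyl* at 469.0 and 187.0 and *Hey2* at 153.2 and 48.3 CPM.

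**Figure D4:**
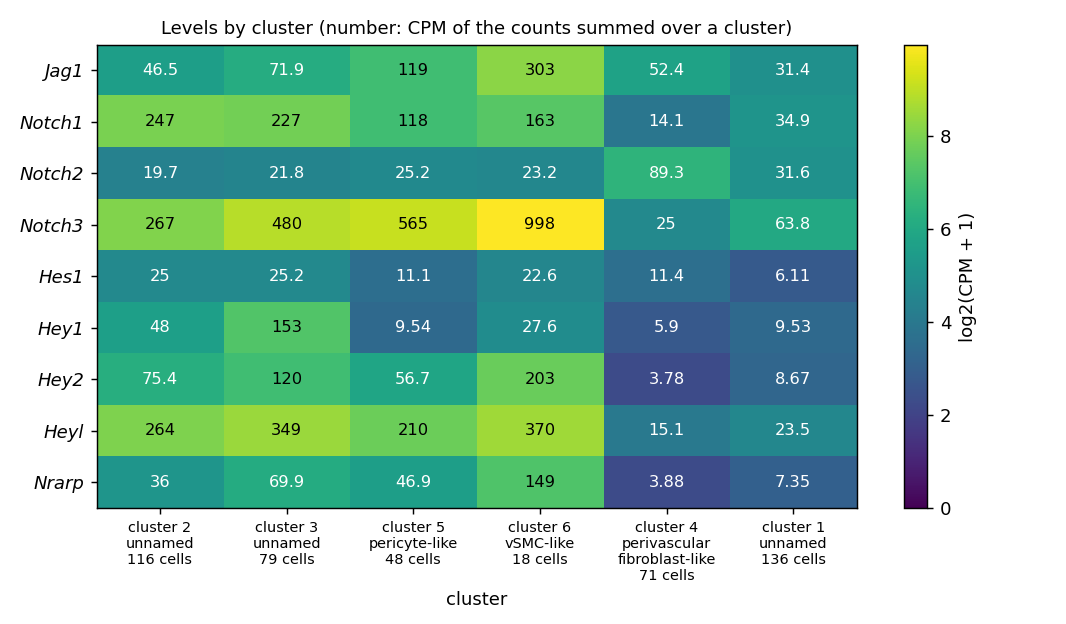
Levels of the 9 genes (rows) in the 6 clusters (columns), coloured by log2(CPM + 1), with CPM written in each square. The vSMC-like column is highest for *Jag1*, *Notch3*, *Hey2*, *Heyl* and *Nrarp*, the perivascular fibroblast-like column for *Notch2*, and cluster 3 for *Hey1*.

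Genes with a like pattern were ranked by Pearson's r of ln(1 + counts per 10000) over 421 cells of 20000 counts or more, among 11887 genes with a count in 20% or more of them; cells share plates, groups and depth, and r is a description. The 5 genes nearest to *Notch3* were *Rgs5*, *Ndufa4l2*, *Mfge8*, *Cspg4* and *Ano1* (r of 0.82 to 0.84), of which *Rgs5*, *Ndufa4l2* and *Cspg4* are pericyte markers of the lists used here. Nearest to *Heyl* were *Cspg4*, *Gucy1b1*, *Rgs5*, *Cox4i2* and *Gper1* (0.65 to 0.68), and to *Hey2* *Gucy1b1*, *Ano1*, *Inpp4b*, *Itga7* and *Gprc5c* (0.51 to 0.55). *Notch2* was instead nearest to *Itih2*, *Clec3b*, *Islr*, *Fbln5* and *Lrp1* (0.46 to 0.51).

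Nearest to *Hey1* were *Stmn2*, *Alpl*, *Eps8l2*, *Rad54b* and *Sox18* (0.45 to 0.49). *Jag1* (*Notch3*, *Zfhx3*, *Myh11*, *Wtip* and *Gja4*, 0.33 to 0.36) and *Hes1* (*Btg2*, *Septin4*, *Brd2*, *Klf2* and *mt-Rnr1*, 0.34 to 0.36) had only weak neighbours. For *Notch1* the first 2 were the genes that overlap it, *0610009E02Rik* (0.84) and *Gm13568* (0.80), followed by *Rgs5*, *Higd1b* and *Esam* (0.72 to 0.73). For *Nrarp* the first was *Gm38287* (0.996), an antisense gene whose exons cover 79.4% of the *Nrarp* exon bases and which held 3988 counts against 4186 of *Nrarp*, so that *Nrarp* and its antisense gene cannot be told apart in these counts; *Notch3* (0.58), *Gja4* (0.54), *Mylk* (0.53) and *Itga7* (0.52) followed. *Notch3* and *Heyl* had the highest r among the pairs of the 9 genes (0.62), and *Notch1* and *Notch2* the lowest (-0.28).

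Among 43 other genes of the pathway, 32 were at 10 CPM or more in uninjured cells of either sort and were compared. In uninjured cord 1 was 2-fold or more higher in tdTomato+EGFP+ cells, *Dtx4* (an E3 ubiquitin ligase of the Deltex family; 85.4 against 34.3 CPM), and 1 was lower, *Lfng* (a glycosyltransferase that modifies Notch receptors; 21.8 against 70.4 CPM). Each is 3.13% of the 32, beside 4.31% and 3.61% of all genes. At 3 days 0 of 30 were higher and 6 were lower: *Dll4*, *Mfng*, *Dtx3*, *Psen2* (a gamma-secretase subunit that cuts Notch), *Maml2* (a coactivator of the nuclear complex) and *Numb* (a Notch antagonist), by -2.75 for *Mfng* to -1.19 for *Numb*. These 6 are 20% of the 30, near the 17.9% of all genes.

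After injury 0 of 32 were higher in either sort. In tdTomato+EGFP+ cells 14 were lower (43.8%, beside 34.3% of all genes): *Notch4*, *Jag2*, *Dll4*, *Maml2*, *Psen2*, *Aph1b*, *Lfng*, *Mfng*, *Numb*, *Mib2*, *Dtx3*, *Dtx4*, *Itch* and *Fbxw7*. In tdTomato-EGFP+ cells 7 were lower (21.9%, beside 17% of all genes), and all 7 are among those 14: *Notch4*, *Jag2*, *Dll4*, *Lfng*, *Mfng*, *Mib2* and *Fbxw7*. *Dll4*, a ligand gene of endothelial tip cells, was at 114.8 and 148.4 CPM without injury and 1.45 and 13.7 CPM with it in tdTomato+EGFP+ and tdTomato-EGFP+ cells, and *Mfng* at 104.6, 91.4, 3.76 and 31.04 CPM. In cells with 0 or 1 endothelial marker, *Dll4* of uninjured tdTomato+EGFP+ cells was at 0.20 CPM, against 155.96 CPM in cells with 2 or more.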

How the data were processed

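The counts of each gene in each single cell are whole numbers as the authors deposited them, from Smart-seq3 libraries of sorted cells; the submitters' notes name the build mm10. The aligner, the annotation and the nature of a count (read or molecule) are not given in the sources used here. Titles map 503 columns to labelled cells by plate and well; 1465 other columns of cells were not used. Rows of spike-in RNA (92, holding 0.0314% of counts) were left out. 0 pairs of columns were identical.

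Filters required at least 200 genes, under 20% mitochondrial counts, *Gfap* and *Ptprc* at 1 or less on the ln(1 + counts per 10000) scale, and *Pecam1* at 1 or less or below *Pdgfrb*, which left 137 tdTomato+EGFP+ and 106 tdTomato-EGFP+ cells from uninjured cord, and 122 and 103 from injured cord. An upper limit of 1200 genes, as in the study's methods, was an alternative. Cells were sorted 1 to a well and no doublets were called, so wells with more than 1 cell, or with attached fragments, may remain. Counts were summed per group and scaled to CPM, with exact Poisson intervals. PCR reads without molecular identifiers are not independent, so intervals and limits cover counting error only. Differences were taken on the log2(CPM + 1) scale, where those of low genes are understated; a gene was called at a difference of 1 or more with 10 CPM or more in the higher group and the same sign in every plate or plate pair. The calculation was tested on simulated data. Shares of cells were taken after thinning to 20000 counts, which left 127, 92, 100 and 102 cells of the groups in that order.

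Clusters came from Seurat 5.3.0 (R 4.3.3; 2000 variable genes without the Notch genes, regressed on detected genes, mitochondrial share and ribosomal share, 20 components, resolution 0.5). A marker was raised at a log2 difference of 0.5 against the remaining cells, given detection in at least 50% of the cluster. A name needed 3 raised markers, no gene of another list among the 10 leading genes and no second cell type with 50% or more of its markers raised (the lists of cycling and activated stromal fibroblast genes, taken as states, did not count here); these limits were set after the clusters were seen. Scaling alternatives used edgeR 4.0.16 and DESeq2 1.42.0. Gene models are GENCODE vM21 and promoters RefSeq GRCm38.p6. The genes named are the 9 members, the other Notch genes past the 2-fold rule in any comparison, the 5 genes most correlated with each member, and marker genes that stand beside a value; the leading genes of clusters were named after their values were seen. Members and lists were chosen with earlier results of these data known.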

Additional observations from a re-analysis of the deposited data

Results flagged for a closer look

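*Notch3* was lower after injury in all 4 plate pairs of tdTomato+EGFP+ cells (-4.10) and higher in all 4 of tdTomato-EGFP+ cells (0.20), a difference of -4.30 between the 2 injury effects. *Dtx4* did the same (-1.01 and 0.83, a difference of -1.84).

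The other results drew attention because the sort pointed one way on both uninjured plates and the opposite way on both injured plates. *Hes1* was higher in tdTomato+EGFP+ cells by 0.06 in uninjured cord and lower by -1.27 at 3 days (difference 1.33). *Mfng* was at 0.19 and -2.75 (difference 2.94), *Numb* at 0.57 and -1.19 (1.75), *Psen2* at 0.16 and -1.46 (1.63), *Aph1b* at 0.50 and -0.52 (1.02) and *Itch* at 0.64 and -0.14 (0.78). The differences between groups were not tested, since each group is 1 sample, and with 2 plates a side opposite signs can arise from small values such as that of *Hes1* in uninjured cord.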

How the results depend on the processing

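Each group is 1 sample, so no alternative has a test; a value was taken as moved where it changed by more than its spread over plates. With the 2-fold rule, the counts of members stayed within 1.5 times of the reported ones in 56 cases and did not in 6. In uninjured cord the count of 1 became 0 with a pseudocount of 10 CPM and with CPM averaged over cells, and 5 without cells with 2 or more endothelial markers. The 4 genes lower after injury in tdTomato-EGFP+ cells became 2 with TMM factors and 1 without cells with endothelial markers. The limit of 1200 genes left 33 cells and none of the injured tdTomato-EGFP+ group, so that only the uninjured sort and the injury comparison of tdTomato+EGFP+ cells gave a value, the latter with 1 gene in place of 7 and a median of 0.

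Leaving out cells with endothelial markers moved the median of the sort in uninjured cord to -1.09, that of injury to -1.41 in tdTomato+EGFP+ and -0.31 in tdTomato-EGFP+ cells, and that of the difference between the injury effects to -1.08. In that setting *Hey1* changed sign in the injury comparison of tdTomato+EGFP+ cells (1.37) and in the difference between the injury effects (3.00), and *Notch1* in that difference (0.10). This setting also removed most pericyte-marker counts of uninjured cells, and the cause was not tested. Without plate 211 the medians were -3.27 for the sort at 3 days, -4.56 for injury in tdTomato+EGFP+ cells and -3.22 for the difference between the injury effects, with 34 shallow cells left in one group. Without plate 215 the median for injury in tdTomato-EGFP+ cells was -1.11. CPM averaged over cells gave -2.93 for the sort at 3 days, and a pseudocount of 10 CPM gave -2.36 for injury in tdTomato+EGFP+ cells and -1.12 for the difference between the injury effects. All other medians moved by less than the spread over plates.

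By cluster, resolution 0.8 made a second pericyte-like cluster. In pericyte-like cells it put *Notch1* at 178.8, *Jag1* at 93.2, *Hey1* at 44.5, *Hey2* at 97.7, *Heyl* at 374.9 and *Nrarp* at 62.4 CPM. At resolution 0.8 a cluster of 51 cells, led like cluster 3 by *Gkn3* and *Bmx*, was named endothelial-like. That cluster had 7 of 8 endothelial and 4 of 9 pericyte markers raised. Resolution 0.3 put *Notch1* at 29.2 CPM in perivascular fibroblast-like cells. Without the regression no cluster was called pericyte-like, and a cluster with 7 of 9 pericyte markers raised stayed unnamed. A vSMC-like cluster was found in all these settings. No paired analysis was possible because no result comes from a test; the plates, which hold both sorts, enter as the within-plate differences. Depth limits the injured tdTomato+EGFP+ cells of plate 215 most, where 0 counts allow 1.79 CPM by counting error alone.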
